A study of Mus musculus with 25 samples.

Results

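Salviolone was compared with vehicle in the cortex of 10 mice that model amyloid disease, 5 mice on the compound (salviolone mice 1 to 5) and 5 on vehicle (model control mice 1 to 5). They were taken by their labelled group from a series of 25 RNA-seq libraries, 1 library per mouse. All 10 were male B6C3 mice with the genotype APPswe, PSEN1dE9, labelled as 6 months old, and each had received its agent by daily intraperitoneal injection for 3 months. Salviolone was given at 5 mg/kg. The other 15 libraries were used for the spread between mice and for values set side by side: 5 mice of the same genotype on (-)-vestitol at 5 mg/kg, 5 on both compounds at 2.5 mg/kg each, and 5 wild type C57BL/6J mice on vehicle. Control and wild type mice therefore differ in strain as well as in genotype. The comparison asks which cortical transcripts differ after salviolone alone, as the single-agent arm of a study of the pair.

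The line carries a mutant amyloid precursor protein and a presenilin 1 that lacks exon 9, both driven by the mouse prion protein promoter. Together they raise the release of amyloid-beta peptide, which collects in plaques ringed by activated microglia and reactive astrocytes. Salviolone is a diterpenoid from the root of Salvia miltiorrhiza, a plant used in Chinese medicine. Neurons depend on oxidative phosphorylation for ATP. Most subunits of that machinery come from nuclear genes, and 13 core subunits are encoded by the mitochondrial genome.

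The labels were checked first. App, the amyloid precursor gene, stood at 1672 ± 165 CPM (read counts scaled to library size, ± SD, n = 5 mice) in wild type, 4262 ± 354 in model control and 4605 ± 437 in salviolone mice. The log2 fold change of App between salviolone and model control was 0.11 ± 0.07 (SE), with an adjusted p of 0.591. That of Prnp, the gene whose promoter drives the transgenes, was 0.02 ± 0.07, with an adjusted p of 0.957. Markers of the cortical layers, summarised as a score (the mean log2 CPM of the list's genes), lay between 6.19 and 6.39 in the control mice and between 6.26 and 6.37 in the salviolone mice. No other tissue was sequenced to set these levels against. The libraries themselves differed. Total counts ran from 59376320 to 72743740 in the salviolone mice and from 77772965 to 93132986 in the control mice, with no overlap (exact two-sided permutation test over all arrangements of the 10 mice, p = 0.00794, the smallest this design can give, and 0.0238 after Benjamini-Hochberg adjustment over 3 library measures).

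Salviolone lowered 4 of 16515 tested genes at an adjusted p under 0.05 (0.0242% of all genes tested) and raised 0, by edgeR's robust quasi-likelihood F test with Benjamini-Hochberg adjustment. The 4 genes were Fnbp1l, Marf1, Col11a1 and Muc6. At an unadjusted p under 0.05 there were 1038 genes lower (6.29%) and 855 higher (5.18%). DESeq2 called 91 genes lowered and 38 raised, among them the same 4, and limma-voom called 0. The median log2 fold change over all tested genes was -0.0019. In bulk tissue, fewer cells of a type and less RNA per cell cannot be told apart, and this holds for every value below.

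The promoters of the 4 lowered genes are shown because these genes share a direction in the same mice. Each is the 250 bases before the RefSeq transcription start in GRCm38.p6, written 5′ to 3′ on the gene's strand, with capitals marking GC boxes (GGGCGG) and CCAAT boxes (CCAAT) found on either strand. Overlapping GC boxes were each counted.
Fnbp1l, chr3:122619715-122619964, minus strand: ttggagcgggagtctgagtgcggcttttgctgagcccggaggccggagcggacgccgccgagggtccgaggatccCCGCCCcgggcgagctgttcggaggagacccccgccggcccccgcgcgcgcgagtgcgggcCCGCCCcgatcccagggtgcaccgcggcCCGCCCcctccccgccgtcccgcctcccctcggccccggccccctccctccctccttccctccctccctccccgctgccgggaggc
Marf1, chr16:14159275-14159524, minus strand: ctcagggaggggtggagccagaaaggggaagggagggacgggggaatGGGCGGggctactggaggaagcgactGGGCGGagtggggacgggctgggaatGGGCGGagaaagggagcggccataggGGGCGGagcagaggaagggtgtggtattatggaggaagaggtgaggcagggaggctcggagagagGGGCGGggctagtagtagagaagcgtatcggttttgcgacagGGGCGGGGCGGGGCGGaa
Col11a1, chr3:114030290-114030539, plus strand: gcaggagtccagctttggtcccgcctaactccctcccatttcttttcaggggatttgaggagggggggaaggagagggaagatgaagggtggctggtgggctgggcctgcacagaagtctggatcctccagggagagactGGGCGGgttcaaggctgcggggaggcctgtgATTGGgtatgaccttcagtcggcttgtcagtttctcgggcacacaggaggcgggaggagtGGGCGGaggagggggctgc
Muc6, chr7:141655394-141655643, minus strand: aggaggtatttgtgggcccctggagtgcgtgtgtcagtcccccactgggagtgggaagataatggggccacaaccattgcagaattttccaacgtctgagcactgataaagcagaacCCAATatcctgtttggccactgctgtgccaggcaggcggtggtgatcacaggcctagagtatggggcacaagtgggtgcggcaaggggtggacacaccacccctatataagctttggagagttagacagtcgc
The 4 windows differ in kind. Those of Fnbp1l and Marf1 are rich in CpG, with 33 and 16 CpG dinucleotides and a GC content of 80.0% and 66.4%. Those of Col11a1 and Muc6 hold 7 and 5 CpG at 62.4% and 55.2% GC, and the median over all promoters is 52.4%. A GC box occurs 8 times for Marf1, 3 times for Fnbp1l and 2 times for Col11a1, and the Muc6 window holds 0, while 32.7% of 32851 promoter windows of this length hold at least 1. A CCAAT box occurs once each for Col11a1 and Muc6, against a share of 33.8% of all windows. The TATA box (TATAAA, in 12.4% of windows), the E-box (CACGTG, 6.02%), the cAMP response element (TGACGTCA, 1.55%) and the STAT motif (TTCNNNGAA, 7.02%) had 0 matches in the 4 windows. These are exact matches of the letters given, so variants such as the tatataa near the end of the Muc6 window were not counted.

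Fnbp1l encodes an F-BAR protein, also known as Toca-1, that bends membranes and works with Cdc42 and N-WASP to start actin filaments. It lies on chr3:122332368-122413364 in the mm39 coordinates of the deposited table. Its level was 155, 149.9, 152, 139 and 146 CPM in model control mice 1 to 5, and 119, 119, 117, 110 and 133 CPM in salviolone mice 1 to 5. Every salviolone mouse lay below every control mouse, with the gap narrowest between salviolone mouse 5 and control mouse 4. Fnbp1l thus averaged 148 ± 6.33 CPM in control and 119.55 ± 8.39 CPM in salviolone mice (mean ± SD, n = 5 each). The log2 fold change was -0.31 ± 0.06 (SE) with an adjusted p of 0.0487, and 5 of 5 salviolone mice lay below the control mean. The vestitol mice had 143 ± 9.02 CPM, the combination mice 146 ± 5.64 and the wild type mice 146 ± 10.7. The transcript is poor in G and C (34.0%), and with a correction for GC content, described further down, the log2 fold change was -0.18 with an adjusted p of 0.438.

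Marf1 encodes a ribonuclease that controls mRNA stability, best known for its role in oocyte meiosis. It lies on chr16:13927037-13981215 in mm39. Control mice 1 to 5 had 254, 251, 249, 247 and 237 CPM, and salviolone mice 1 to 5 had 226, 215, 207, 208 and 214 CPM. The groups did not overlap, with salviolone mouse 1 and control mouse 5 the nearest to each other. Marf1 averaged 248 ± 6.61 CPM in control and 214 ± 7.56 CPM in salviolone mice. The log2 fold change was -0.21 ± 0.04 with an adjusted p of 0.0487, and 5 of 5 salviolone mice lay below the control mean. Its level was 224 ± 9.99 CPM in wild type, 237 ± 9.76 with vestitol and 213 ± 4.12 with the combination. With the GC correction the value was -0.17 (adjusted p = 0.128), at a transcript GC content of 45.4%.

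Col11a1 encodes the alpha 1 chain of type XI collagen, a minor fibrillar collagen that sets the diameter of collagen fibrils. It lies on chr3:113824189-114014367 in mm39. Its level was 20.2, 24.01, 30.9, 21.3 and 20.1 CPM in control mice 1 to 5 and 12.7, 10.8, 12.2, 16.8 and 17.7 CPM in salviolone mice 1 to 5. Control mouse 3 was the highest of the 10, and the lowest control mouse still lay above the highest salviolone mouse. Col11a1 averaged 23.3 ± 4.52 CPM in control and 14.0 ± 3.01 CPM in salviolone mice. The log2 fold change was -0.73 ± 0.13 with an adjusted p of 0.0487, and 5 of 5 salviolone mice lay below the control mean. The other groups had 21.0 ± 1.25 CPM (wild type), 19.0 ± 2.89 (vestitol) and 25.3 ± 2.69 (combination). With the GC correction the value was -0.71 (adjusted p = 0.0869), so its size moved little.

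Muc6 encodes a secreted gel-forming mucin, best known from the stomach. It lies on chr7:141213373-141241641 in mm39. Control mice 1 to 5 had 15.8, 15.1, 17.1, 15.7 and 12.9 CPM, and salviolone mice 1 to 5 had 9.004, 9.62, 9.05, 10.04 and 11.9 CPM. The groups were separated by about 1 CPM at their nearest points, between salviolone mouse 5 and control mouse 5. Muc6 averaged 15.3 ± 1.54 CPM in control and 9.93 ± 1.203 CPM in salviolone mice. The log2 fold change was -0.63 ± 0.11 with an adjusted p of 0.0487, and 5 of 5 salviolone mice lay below the control mean. Wild type mice had 15.9 ± 2.15 CPM, vestitol mice 13.4 ± 1.76 and combination mice 10.6 ± 1.41. Muc6 kept its call with the GC correction (-0.66, adjusted p = 0.029).

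**Figure D1:**
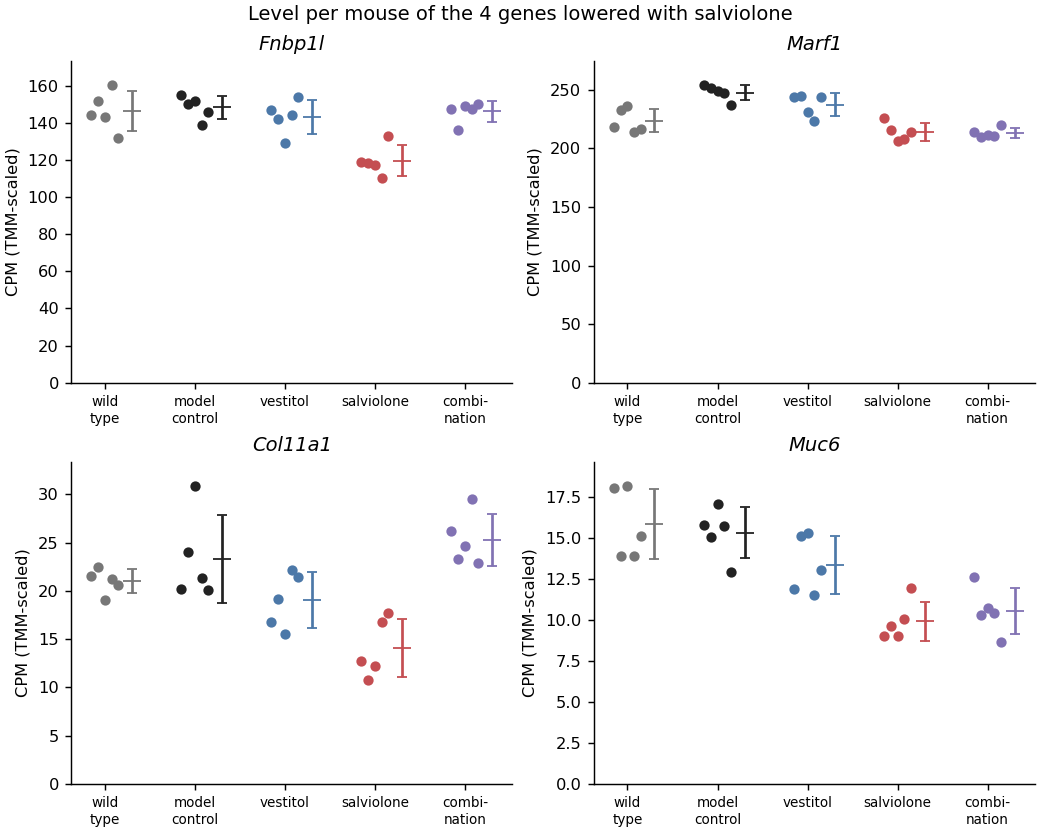
Level in CPM, scaled for library composition, of Fnbp1l, Marf1, Col11a1 and Muc6 in each of 25 mice, with the mean and SD of each group of 5 beside the points. In all 4 panels the 5 salviolone points lie below the 5 model control points, for Muc6 with 11.9 against 12.9 CPM at the nearest points. The 4 genes were picked by their p in this comparison, and 1.22% of all tested genes lay below without overlap.

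Against the model control, the log2 fold changes of the 4 genes under vestitol were -0.05 ± 0.06 for Fnbp1l, -0.06 ± 0.04 for Marf1, -0.29 ± 0.13 for Col11a1 and -0.20 ± 0.11 for Muc6. Under the combination they were -0.02 ± 0.05, -0.22 ± 0.04, 0.12 ± 0.13 and -0.54 ± 0.11 in the same order. These arms share the control mice and differ in salviolone dose, so the values stand side by side with no comparison between arms.

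All 4 calls sat close to the threshold and depended on single mice. In an edgeR fit of only the 10 mice compared, none of the 4 was called (adjusted p between 0.121 and 0.169). Leaving out salviolone mouse 2 or 3, or any of control mice 1 to 4, left 0 called genes, with adjusted p values of the 4 genes between 0.0694 and 0.132. Without salviolone mouse 1 there were 27 genes lowered and 3 raised, and without control mouse 5 there were 15 lowered and 1 raised, both including the 4. Without salviolone mouse 4 only Col11a1 of the 4 kept its call (adjusted p = 0.0443), and without salviolone mouse 5 Marf1 lost its own (0.147). The sizes moved less than the calls. The log2 fold change over these 10 omissions ran from -0.35 to -0.28 for Fnbp1l, from -0.23 to -0.20 for Marf1, from -0.83 to -0.61 for Col11a1 and from -0.70 to -0.59 for Muc6.

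Just outside the threshold, 4 more genes completed the 8 with the smallest p on the lower side. Wnk3, a kinase that controls cation-chloride cotransporters, had 23.5, 25.6, 23.1, 24.95 and 18.5 CPM in control mice 1 to 5 and 13.3, 11.9, 12.4, 11.5 and 11.1 CPM in salviolone mice 1 to 5. The groups did not overlap (log2 fold change -0.94 ± 0.18, 95% interval -1.32 to -0.57), at an adjusted p of 0.0601. Mbtd1, a subunit of a histone acetyltransferase complex, averaged 22.9 ± 3.16 and 14.1 ± 1.99 CPM (-0.70 ± 0.14, adjusted p = 0.0601). Zfp451, a zinc finger protein with SUMO ligase activity, averaged 72.0 ± 3.88 and 57.0 ± 2.65 CPM (-0.34 ± 0.06, adjusted p = 0.0601), and Zfp772, a zinc finger gene, 13.1 ± 0.69 and 8.999 ± 1.25 CPM (-0.54 ± 0.11, adjusted p = 0.0712). None of these 4 overlapped between the groups, but they were picked by their p in this same comparison. Of all tested genes, 1.22% lay below the controls without overlap. With the GC correction described further down, the 4 values were -0.87 (Wnk3), -0.61 (Mbtd1), -0.26 (Zfp451) and -0.50 (Zfp772).

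On the higher side no gene passed. Rsad1, which encodes a radical SAM domain protein, came closest, with 15.3, 19.0, 16.9, 15.6 and 18.8 CPM in control mice 1 to 5 and 30.3, 26.4, 31.8, 23.3 and 22.2 CPM in salviolone mice 1 to 5. All salviolone mice lay above all control mice (0.65 ± 0.14, adjusted p = 0.0712). Keap1 encodes the adaptor that marks the antioxidant transcription factor Nrf2 for degradation. It had 63.2, 49.7, 57.6, 55.7 and 54.1 CPM in control and 68.3, 64.7, 73.3, 60.7 and 67.7 CPM in salviolone mice 1 to 5. Control mouse 1 lay above salviolone mouse 4, so the groups overlapped (0.26 ± 0.06, adjusted p = 0.0715). Sbf1, a catalytically inactive myotubularin relative, had a value of 0.24 ± 0.05 (adjusted p = 0.0712). Adjusted p values of the other 5 lay between 0.101 and 0.114. These were Usp2, a clock-regulated deubiquitinase (0.28 ± 0.07), and Lfng, a glycosyltransferase that modifies Notch (0.36 ± 0.08). The rest were Amn, a partner of cubilin in vitamin B12 uptake (0.81 ± 0.19), Mvb12b, an ESCRT-I subunit (0.14 ± 0.03), and Cenpb, a centromere protein (0.19 ± 0.05). With the GC correction described further down, all these values were nearer 0, at edgeR adjusted p values between 0.12 and 0.472. They were 0.63 (Rsad1), 0.19 (Keap1), 0.17 (Sbf1), 0.24 (Usp2), 0.29 (Lfng), 0.73 (Amn), 0.08 (Mvb12b) and 0.14 (Cenpb).

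**Figure D2:**
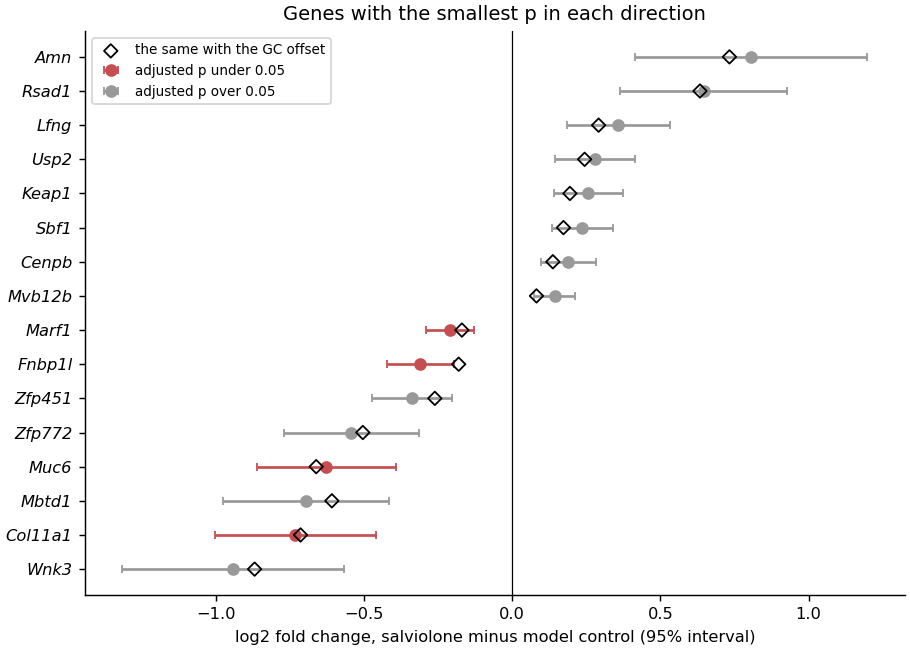
Log2 fold change between salviolone and model control with its 95% interval for the 8 lower and 8 higher genes with the smallest p, red where the adjusted p is under 0.05 and grey otherwise, and open diamonds for the same fit with the GC correction. The red points are Fnbp1l, Marf1, Col11a1 and Muc6, and Fnbp1l shows the longest shift toward 0 relative to its interval, from -0.31 to -0.18.

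The 13 genes of the mitochondrial genome stood below the control level together, yet 0 of them were called by edgeR. All 13 had a log2 fold change under 0 (50.5% of all tested genes did), all 13 had an unadjusted p under 0.05 on the lower side (6.29% of all tested genes did), and 2 of the 13 did not overlap between the groups (1.22% of all tested genes lay below without overlap). DESeq2 called 11 of them lowered, and limma-voom called 0. Their median log2 fold change was -0.46. The genes are read from shared long transcripts, so they are not independent of one another.

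Among the complex I subunits, which take electrons from NADH, mt-Nd5 had 1036, 856, 763, 674 and 697 CPM in control mice 1 to 5. In salviolone mice 1 to 5 it had 653, 672, 508, 536 and 547 CPM. Salviolone mouse 2 and control mouse 4 were within about 1 CPM of each other, with no overlap. The means were 805 ± 147 and 583 ± 74.1 CPM (-0.46 ± 0.10, adjusted p = 0.0712). Mt-Nd4l stood at -0.50 ± 0.11 (adjusted p = 0.0712), and mt-Nd6, the one subunit encoded on the opposite strand from the rest, had the value nearest 0 (-0.24 ± 0.11, adjusted p = 0.412). The other complex I genes, mt-Nd1, mt-Nd2, mt-Nd3 and mt-Nd4, lay between -0.46 and -0.33.

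Of the later complexes, mt-Cytb of complex III averaged 487 ± 88.2 and 347 ± 65.4 CPM (-0.49 ± 0.11, adjusted p = 0.101). The complex IV subunit mt-Co1, a catalytic core subunit, had 3539, 3580, 3175, 3234 and 2577 CPM in control and 3100, 2846, 1959, 1892 and 1753 CPM in salviolone mice 1 to 5. Salviolone mice 1 and 2 lay within the control range and mice 3, 4 and 5 below it (-0.48 ± 0.13, adjusted p = 0.174). Mt-Co2 stood at -0.46 ± 0.10 (0.0712) and mt-Co3 at -0.42 ± 0.11 (0.167). The ATP synthase subunit mt-Atp8 had 59.97, 51.2, 41.7, 41.7 and 43.8 CPM in control and 38.7, 37.3, 28.5, 28.7 and 29.0 CPM in salviolone mice 1 to 5. It did not overlap (-0.56 ± 0.16, adjusted p = 0.194), and mt-Atp6 stood at -0.49 ± 0.11 (0.101).

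Summed, the 13 genes took 0.816, 0.745, 0.642, 0.620 and 0.562% of all counts in control mice 1 to 5. In salviolone mice 1 to 5 the share was 0.620, 0.580, 0.434, 0.424 and 0.409%. Salviolone mice 3, 4 and 5 lay below every control mouse, and mice 1 and 2 inside the control range. In both groups the share fell steadily from mouse 1 to mouse 5, which it did not do in the vestitol, combination or wild type mice. Whether the mouse number marks a shared handling order is not stated. The means were 0.677% ± 0.102 and 0.493% ± 0.0988 (exact two-sided permutation test, p = 0.0317, adjusted p = 0.0475 over 3 library measures). This call was lost in 8 of 10 omissions of 1 mouse: without any one of control mice 1 to 4 or salviolone mice 2 to 5, the adjusted exact permutation p lay between 0.0595 and 0.0952. It was 0.0357 without salviolone mouse 1 and 0.0238 without control mouse 5 (exact permutation tests). The share was 0.707% ± 0.0601 in wild type, 0.787% ± 0.0327 with vestitol and 0.554% ± 0.0488 with the combination. The median log2 fold change of the 13 genes against the model control was 0.32 under vestitol and -0.33 under the combination. Their median transcript GC content was 37.1%, and with the GC correction the salviolone median was -0.36. In a fit on counts thinned to the smallest library, the median of the 13 genes moved by less than 1 SD between mice. The part of GC content and of library depth in these values was not tested beyond these fits.

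**Figure D3:**
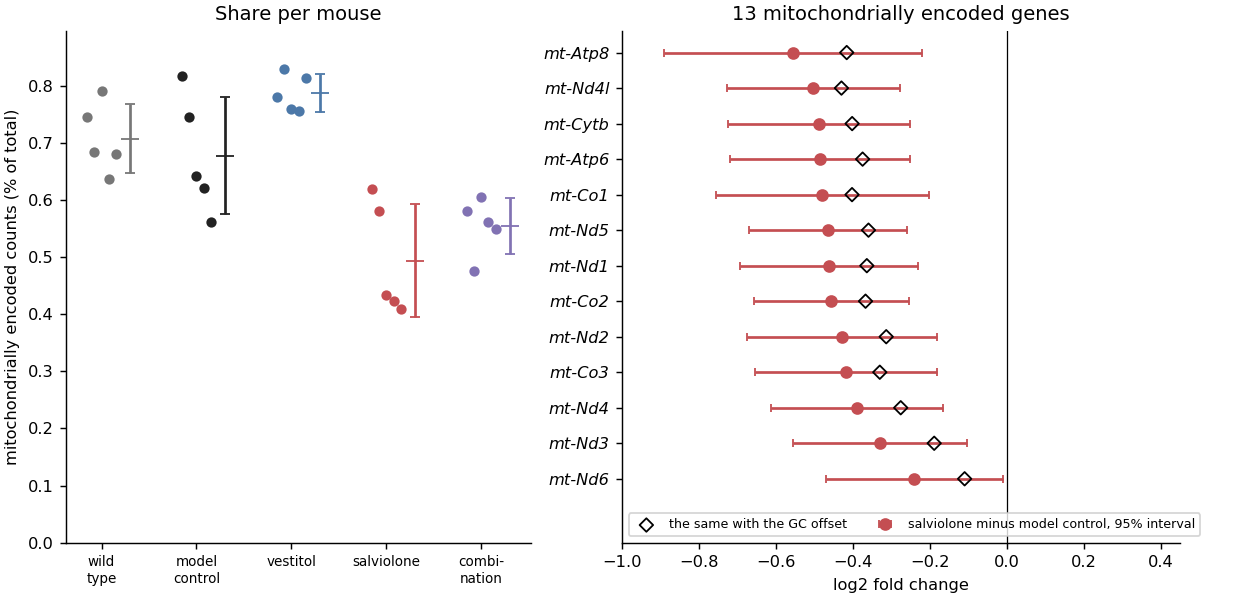
Left, the share of all counts from the 13 mitochondrially encoded genes in each of 25 mice, with the mean and SD of each group. Right, the log2 fold change of each of the 13 genes between salviolone and model control with its 95% interval, and with the GC correction as open diamonds: all 13 points lie under 0, from -0.56 for mt-Atp8 to -0.24 for mt-Nd6.

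Nuclear genes of the same machinery mostly had values above 0. Of 26 nuclear genes of oxidative phosphorylation, 0 were called by edgeR, DESeq2 or limma-voom, 21 had a log2 fold change above 0 (49.5% of all tested genes did), and the median was 0.07. At an unadjusted p under 0.05, 4 were higher (Sdhb, Uqcrc1, Cox5a and Atp5b; 5.18% of all tested genes were) and 0 lower. Of the 26, Ndufv1, Sdhb and Atp5a1 lay above the controls without overlap, as 1.14% of all tested genes did. Sdhb, the iron-sulphur subunit of complex II, averaged 88.0 ± 2.27 and 94.3 ± 3.21 CPM (0.10 ± 0.04, adjusted p = 0.295). Uqcrc1, a core subunit of complex III, averaged 243 ± 13.5 and 263 ± 8.12 CPM (0.12 ± 0.04, adjusted p = 0.273). With the GC correction the median of the 26 genes was 0.04. Sdhb then stood at 0.07 (edgeR adjusted p = 0.557) and Uqcrc1 at 0.09 (0.485). The 23 genes of mitochondrial transcription and RNA processing had a median of -0.02, with 1 member on each side at an unadjusted p under 0.05: Tbrg4, which stabilises mitochondrial RNA (0.32 ± 0.09, adjusted p = 0.171), and Prorp, the protein-only ribonuclease P subunit (-0.38 ± 0.15, adjusted p = 0.309).

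The fold changes were ordered by the GC content of the transcripts. When 16157 genes with a known GC content (97.8% of those tested) were divided by GC content into 5 bins of equal size, the median log2 fold change was -0.08, -0.03, 0.00, 0.03 and 0.06 from the poorest to the richest bin. In the poorest bin 436 genes were lower and 39 higher at an unadjusted p under 0.05, and in the richest 60 were lower and 351 higher. The rank correlation across genes, which are not independent replicates, was 0.28. It was 0.22 for the combination and 0.01 for vestitol, against the same control mice. Between control and wild type mice the bin medians ran the other way, from 0.04 in the poorest bin to -0.05 in the richest. A GC index per mouse (the level of GC-rich minus GC-poor genes, log2) was -0.148, -0.178, 0.0705, -0.208 and 0.0336 in control mice 1 to 5 and -0.058, -0.0678, 0.127, 0.134 and 0.158 in salviolone mice 1 to 5. The groups overlapped (exact two-sided permutation test, p = 0.119). Salviolone mice 3, 4 and 5, with the highest index, were also those with the lowest mitochondrial share. Among the control mice the order was mixed. Mouse 5, with the lowest share, had an index of 0.0336, and mouse 4, with the next lowest, had -0.208.

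**Figure D4:**
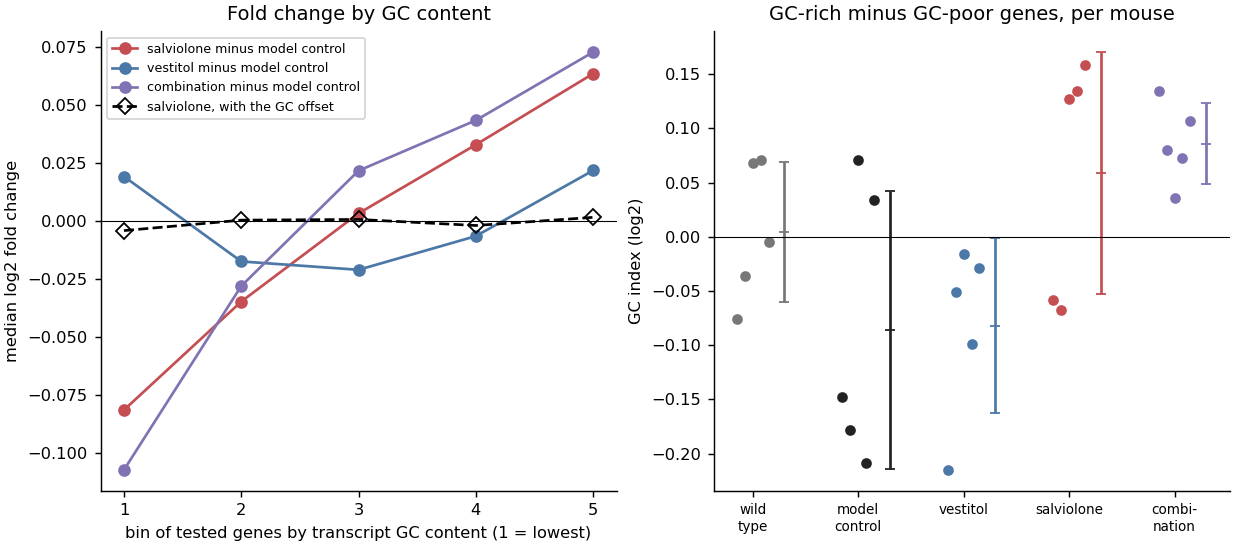
Left, the median log2 fold change of genes in 5 bins of transcript GC content for each treatment against the model control, and for salviolone with the GC correction (dashed). Right, the GC index of each of 25 mice with the mean and SD of each group. In the left panel the salviolone line climbs from -0.08 to 0.06, and the dashed line stays near 0 by construction of the correction.

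A GC offset for each library, chosen after seeing the data, was estimated from the trend of level on GC content. It therefore removes this slope by construction. The fit with this offset called 2 genes lowered and 0 raised. One was Muc6. The other was Ppp1r9b, which encodes spinophilin, a scaffold of dendritic spines, at -0.23 ± 0.04 (adjusted p = 0.0256), against -0.15 (adjusted p = 0.183) without the offset.

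The 43 gene lists held 751 tested genes, of which 4 were called lowered and 0 raised by edgeR. The 4 called genes each sat in a list built around it. At an unadjusted p under 0.05, 10.5% of the list genes were lower and 5.46% higher, beside 6.29% and 5.18% of all tested genes. DESeq2 called 19 list genes lowered, 11 of them mitochondrially encoded, and 3 raised (Keap1, Mt1 and Usp2).

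Of 27 F-BAR and actin nucleation genes, Fnbp1l was called and 26 were not, with a median of -0.01. Its partner Cdc42, a small GTPase, averaged 171 ± 6.31 and 158 ± 4.93 CPM (-0.12 ± 0.04, adjusted p = 0.196). Of 25 genes of mRNA decay bodies, Marf1 was called and 24 were not, with a median of -0.02. In this list, built around Marf1, 4 members lay below the controls without overlap, as 1.22% of all tested genes did: Marf1 itself, Ddx6, an RNA helicase of P-bodies (-0.13 ± 0.05, adjusted p = 0.302), Pan3, a subunit of a poly(A) nuclease (-0.14 ± 0.06, adjusted p = 0.318), and Tnrc6b, a partner of Argonaute (-0.19 ± 0.21, adjusted p = 0.792). Of 24 fibrillar collagens and partner genes, Col11a1 was called and the median of the list was 0.08. Of 12 tested mucins, Muc6 was called and 11 had a log2 fold change under 0 (50.5% of all tested genes did), with a median of -0.67. The mucin score was 1.84, 1.86, 1.84, 0.18 and 0.54 in control mice 1 to 5 and 1.68, 0.20, 0.03, -0.34 and 0.22 in salviolone mice 1 to 5. Control mice 4 and 5 thus lay near salviolone mice 2 to 5, and salviolone mouse 1 near control mice 1 to 3. That median ran from -0.83 without salviolone mouse 1 to -0.50 without salviolone mouse 4. Muc15, a membrane mucin at a low level, averaged 1.19 ± 0.29 and 0.65 ± 0.12 CPM (-0.86 ± 0.33, adjusted p = 0.302), and Muc3a 15.8 ± 2.39 and 12.4 ± 2.35 CPM (-0.35 ± 0.16, adjusted p = 0.389).

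Among lists of the amyloid response, edgeR, DESeq2 and limma-voom each called 0 genes. Of 24 genes of plaque-associated microglia, 19 had a log2 fold change above 0 (49.5% of all tested genes did) and the median was 0.12 (0.07 without salviolone mouse 2, and up to 0.18 without another mouse). Apoe, Csf1 and Tyrobp were higher at an unadjusted p under 0.05, as were 5.18% of all tested genes. Apoe, the main lipoprotein of the brain, averaged 694 ± 117 and 841 ± 35.7 CPM (0.28 ± 0.12, adjusted p = 0.368). Csf1, a growth factor for microglia, averaged 31.6 ± 3.14 and 37.6 ± 3.62 CPM (0.25 ± 0.10, adjusted p = 0.324). C4b, the complement component carried by reactive glia, averaged 148 ± 11.002 and 192 ± 16.3 CPM with no overlap (0.38 ± 0.15, adjusted p = 0.316). Gfap, the intermediate filament of astrocytes, averaged 458 ± 45.2 and 546 ± 47.9 CPM (0.26 ± 0.15, adjusted p = 0.521). The list medians were 0.06 for homeostatic microglia, 0.05 for complement, -0.07 for reactive astrocytes and -0.12 for the interferon response, where 19 of 21 genes were under 0 (50.5% of all tested genes were). The interferon median turned to 0.09 without the 3 libraries rich in choroid plexus genes described further down. With 1 mouse left out the 4 medians ran from -0.02 to 0.11, from -0.06 to 0.08, from -0.09 to -0.02 and from -0.22 to -0.01 in the same order.

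Of 24 genes of amyloid processing and clearance, 0 were called by edgeR, DESeq2 or limma-voom, and at an unadjusted p under 0.05 there were 3 lower (Mme, Picalm and Adam17) and 1 higher (Apoe). Over all tested genes, 6.29% were lower and 5.18% higher at that p. Mme encodes neprilysin, a peptidase that degrades amyloid-beta. It had 7.55, 9.81, 5.04, 6.402 and 6.21 CPM in control mice 1 to 5 and 4.10, 5.00, 4.26, 3.70 and 3.03 CPM in salviolone mice 1 to 5. The nearest points, salviolone mouse 2 and control mouse 3, all but touched (-0.80 ± 0.22, adjusted p = 0.171). Picalm, an endocytic adaptor, stood at -0.17 ± 0.07 (adjusted p = 0.325). Of 22 tau kinases and phosphatase genes 0 were called by edgeR, with 3 lower (Ppp2r2a, Rock1 and Rock2) and 2 higher (Mark4 and Csnk1e) at an unadjusted p under 0.05. The shares over all tested genes were again 6.29% and 5.18%. Ppp2r2a, a regulatory subunit of protein phosphatase 2A, had a value of -0.40 ± 0.10 (adjusted p = 0.142), and DESeq2 called it lowered.

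STAT3 is a transcription factor of cytokine signalling. Of 18 of its targets 0 were called by edgeR, and the median was 0.01, with 9 genes on each side of 0. Ccnd1, which encodes cyclin D1, stood apart from that median, with 70.6, 52.5, 68.2, 55.1 and 61.7 CPM in control mice 1 to 5. It had 41.3, 46.5, 41.6, 43.2 and 42.3 CPM in salviolone mice 1 to 5, all below the lowest control (-0.52 ± 0.11, adjusted p = 0.0712). DESeq2 called Ccnd1 lowered.

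Of 23 antioxidant response genes 0 were called by edgeR, 4 were higher at an unadjusted p under 0.05 (Keap1, Mt1, Gsr and Txn1) and 1 was lower (Prdx1). Over all tested genes, 5.18% were higher and 6.29% lower at that p. Of the 23, Mt1, Gsr and Txn1 lay above the controls without overlap, as 1.14% of all tested genes did. Prdx1, a peroxidase of the peroxiredoxin family, averaged 24.6 ± 8.81 and 15.3 ± 7.67 CPM (-0.68 ± 0.28, adjusted p = 0.352). The metal-binding metallothionein Mt1 averaged 89.1 ± 5.65 and 107 ± 4.64 CPM with no overlap (0.26 ± 0.07, adjusted p = 0.142). Gsr, the reductase of glutathione, averaged 34.9 ± 1.47 and 45.4 ± 7.45 CPM (0.38 ± 0.11, adjusted p = 0.188). Of 24 autophagy and lysosome genes 18 had a log2 fold change above 0 (49.5% of all tested genes did), with a median of 0.06. Rptor, the raptor subunit of mTORC1, averaged 130.4 ± 3.57 and 146 ± 8.53 CPM (0.16 ± 0.05, adjusted p = 0.195).

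Of 20 circadian clock genes 0 were called by edgeR, DESeq2 called Usp2 raised, and at an unadjusted p under 0.05 there were 5 higher and 2 lower. Of all tested genes, 5.18% were higher and 6.29% lower at that p. The 2 lower genes were Arntl (-0.18 ± 0.09, adjusted p = 0.432) and Npas2 (-0.16 ± 0.07, adjusted p = 0.352), which encode activators of the clock. The 5 higher genes, Nr1d1, Per3, Ciart, Dbp and Usp2, are targets of those activators. Nr1d1, a repressor of Arntl, averaged 102 ± 12.8 and 134 ± 18.3 CPM with no overlap (0.39 ± 0.15, adjusted p = 0.324). Dbp averaged 54.5 ± 9.24 and 69.7 ± 6.91 CPM (0.35 ± 0.16, adjusted p = 0.401) and Ciart 17.3 ± 4.64 and 24.3 ± 5.01 CPM (0.49 ± 0.20, adjusted p = 0.331).

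Of 18 heat shock genes 15 were under 0 (50.5% of all tested genes were), with a median of -0.14. Of 22 genes of the unfolded protein response 15 were under 0, with a median of -0.05. Hspa4, an Hsp110 chaperone, averaged 305 ± 5.72 and 276 ± 15.6 CPM with no overlap (-0.14 ± 0.05, adjusted p = 0.222). Hsp90b1, the chaperone of the endoplasmic reticulum, averaged 319 ± 9.29 and 266 ± 27.0 CPM with no overlap (-0.26 ± 0.07, adjusted p = 0.17). Of 24 excitatory synapse genes 15 were under 0 and 5 were lower (Grin2b, Gria2, Gria3, Dlg4 and Shank2) and 0 higher at an unadjusted p under 0.05, with a median of -0.03. At that p, 6.29% of all tested genes were lower and 5.18% higher. Grin2b, an NMDA receptor subunit, averaged 977 ± 45.1 and 823 ± 66.5 CPM with no overlap (-0.25 ± 0.07, adjusted p = 0.153). Gria2, an AMPA receptor subunit, averaged 632 ± 27.1 and 557 ± 31.9 CPM (-0.18 ± 0.06, adjusted p = 0.216). With the GC correction these last 4 values were -0.11, -0.20, -0.21 and -0.07. EdgeR, DESeq2 and limma-voom called 0 genes in the heat shock, unfolded protein response and synapse lists.

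**Figure D5:**
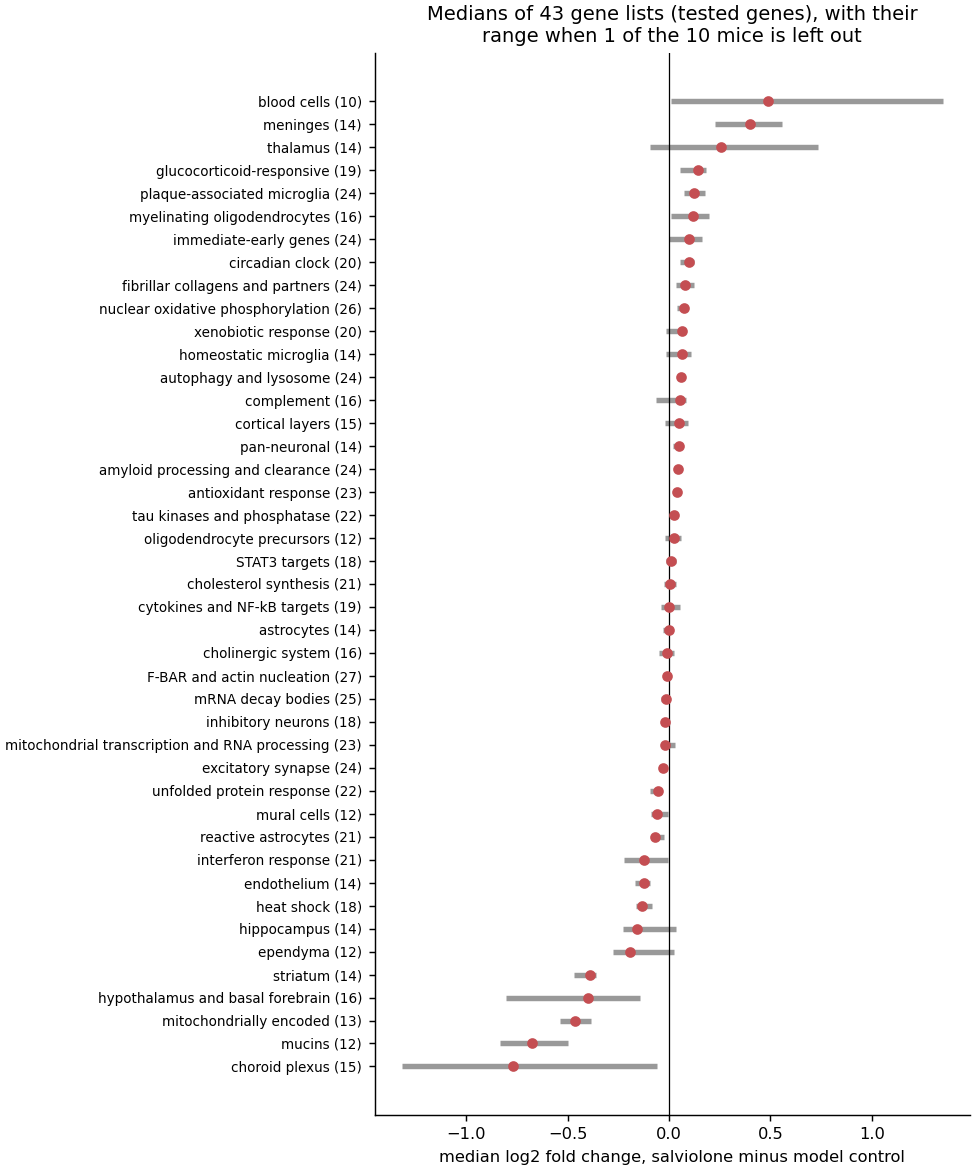
Median log2 fold change between salviolone and model control of 43 gene lists (red points, with the number of tested genes in parentheses) and the range of that median when each of the 10 mice is left out in turn (grey bars). Most medians lie near 0, and the lists furthest from it are those of other tissues, the mucins and the mitochondrially encoded genes, several with long bars.

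Markers of tissue next to the cortex also differed between the libraries. The striatum list, genes of the medium spiny neurons below the cortex, had 13 of 14 members under 0, beside 50.5% of all tested genes. The list had a median of -0.39 and 8 members lower at an unadjusted p under 0.05 (6.29% of all tested genes were). Its score was 5.72, 5.69, 5.57, 5.62 and 5.12 in control mice 1 to 5 and 5.03, 5.30, 4.94, 5.24 and 5.35 in salviolone mice 1 to 5. Control mouse 5 lay among the salviolone mice, and the other 4 above them. Syndig1l, a transmembrane protein enriched in striatum, averaged 48.3 ± 8.72 and 32.0 ± 3.73 CPM (-0.59 ± 0.16, adjusted p = 0.162), and Pde10a, the striatal phosphodiesterase, 386 ± 45.7 and 258 ± 47.4 CPM (-0.58 ± 0.17, adjusted p = 0.195). Adora2a, the adenosine receptor of striatal neurons, averaged 63.3 ± 9.43 and 43.3 ± 6.45 CPM (-0.55 ± 0.16, adjusted p = 0.201). EdgeR called 0 members and DESeq2 2, Pde10a and Syndig1l. The median stayed between -0.47 and -0.36 with any one mouse left out, and no member was at 0 counts in any of the 10 libraries.

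The choroid plexus list, genes of the epithelium that makes cerebrospinal fluid, had 15 of 15 members under 0, beside 50.5% of all tested genes. The list had a median of -0.77. Its score was 0.33, -0.31, -0.43, 2.62 and 1.45 in control mice 1 to 5 and 1.68, -0.35, -0.73, -0.12 and -0.01 in salviolone mice 1 to 5. High scores thus occurred in control mice 4 and 5 and in salviolone mouse 1. The median was -0.06 without control mouse 4 and -1.32 without salviolone mouse 1, and 4 members (Kcne2, Lmx1a, Otx2 and Slc4a5) were at 0 counts in at least 1 library. Without all 3 of these libraries, an alternative chosen after seeing the data, 49 genes were lowered and 3 raised, and the values of the 4 called genes were -0.34 (Fnbp1l), -0.25 (Marf1), -0.80 (Col11a1) and -0.65 (Muc6), each still called. The median of the mitochondrially encoded genes was then -0.66. Of these 3 libraries, control mouse 5 and salviolone mouse 1 had the lowest Muc6 level of their groups (12.9 and 9.004 CPM).

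The other lists of neighbouring tissue and blood had wide ranges. The median was 0.40 for meninges, 0.26 for thalamus, 0.49 for blood cells and -0.40 for hypothalamus and basal forebrain. It ran from 0.23 (without salviolone mouse 2) to 0.56 (without salviolone mouse 1) for meninges, and from -0.09 (without salviolone mouse 4) to 0.73 (without control mouse 2) for thalamus. For blood cells it ran from 0.01 (without salviolone mouse 4) to 1.35 (without control mouse 4), and for hypothalamus and basal forebrain from -0.80 (without salviolone mouse 1) to -0.14 (without control mouse 1). The 16 myelinating oligodendrocyte genes all lay above 0 (49.5% of all tested genes did). Their median of 0.12 was 0.01 without control mouse 3. The medians of astrocytes, pan-neuronal genes and cortical layers were 0.00, 0.05 and 0.05. EdgeR called 0 genes in each of these lists. The part of tissue make-up in the results above was not tested beyond the fits named here.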

How the data were processed

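Cortex RNA of 25 mice, 1 library each, was sequenced. The labels name total RNA, a TruSeq and a SMARTER mRNA-Seq kit. Per the submitters' processing notes, Trim Galore, STAR and mm39 were used. Their roles and versions, and the tool, strand setting and annotation behind the counting, are not stated, so overlapping and antisense genes may share counts. The authors deposited raw counts per gene and FPKM for the same 25 samples. Dividing one by the other gave each gene nearly the same length in every sample (median CV 0.177%). Of counts from 4 to 39, 44.3% were multiples of 4 (25% by chance), for a reason not stated.

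Of 21720 genes, 2769 were at 0 in every sample, and edgeR's filterByExpr (minimum count 10) left 16515. All 25 samples, 5 groups of 5 mice, entered 1 fit (edgeR 4.0.16, R 4.3.3, TMM, robust quasi-likelihood F test, two-sided, Benjamini-Hochberg over all tested genes, threshold 0.05). The TMM factors ran from 0.980 to 1.04, at a common dispersion of 0.0483. CPM use TMM-scaled library sizes. The SE of a log2 fold change is its size over the square root of F. A count of 0 allows up to 3 counts, or 0.0322 to 0.0505 CPM in the 10 libraries compared, for counting error only. Scores are mean log2 CPM with a prior count of 2. GC content is that of the longest GENCODE M21 transcript per symbol, used as a property only. The fit was also run on simulated counts. These had the same dispersion for all genes, lower than the common dispersion here, and no GC or tissue differences. The simulation therefore does not gauge the error rate of these calls.

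Alternatives were 10 fits leaving out 1 mouse and 18 others: RLE size factors, 2 other filters, DESeq2 1.42.0, limma-voom (limma 3.58.1), limma on log2 of FPKM plus 0.1 or 1, only the 10 mice, no mitochondrially encoded genes, a replicate block, thinned counts, counts divided by 4, marker scores as covariates, and, chosen after seeing the data, a GC offset, that offset with the block, and the fit without 3 choroid-rich libraries. Named genes were the called genes, the 8 per direction with the smallest p (named genes of mean log2 CPM at least 1), Fnbp1l, Col11a1, Muc6, Marf1, mt-Nd5 and its 12 fellow mitochondrial genes, App, Prnp, and the 2 members of each of 43 lists with the smallest p; Ppp1r9b and the other list members were named after their values were seen. The members and lists were chosen with earlier results of these data known. Of the 764 list names 762 were in the table and 751 were tested.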

Additional observations from a re-analysis of the deposited data

Results flagged for a closer look

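In 308 sets of 5 mice (named genes, list scores and library measures, each in both groups), 21 had 1 mouse far from the other 4 by Dixon's criterion, 7 in the salviolone and 14 in the control group. Chance flags about 1 set in 20.

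Among salviolone mice, mouse 1 stood at 7.09 CPM for Kl, a choroid plexus gene (others 1.28 to 2.45), and at a mucin score of 1.68 (others -0.34 to 0.22). Mouse 2 had a complement score of 3.22 (others 2.83 to 2.91). Mouse 3 had 10.9 CPM of Chac1, an enzyme of glutathione breakdown (others 8.60 to 8.92). Mouse 4 had 6.28 CPM of Abcg2, an efflux transporter (others 8.58 to 9.12), and a glucocorticoid-responsive score of 4.69 (others 5.04 to 5.14). Mouse 5 had 67.6 CPM of Plin4, a lipid droplet protein (others 24.1 to 32.2).

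Among control mice, mouse 1 had 10.1 CPM of Dnah5, a dynein of motile cilia (others 6.62 to 7.15), 119 CPM of Hap1 (others 45.2 to 64.0) and a hypothalamus and basal forebrain score of 1.17 (others -0.73 to -0.23). Mouse 2 had 93130000 total counts (others 77770000 to 79090000), 21.1 CPM of Abcc9, a potassium channel subunit of mural cells (others 14.0 to 16.0), a mural score of 4.04 (others 3.69 to 3.79) and an F-BAR score of 6.43 (others 6.55 to 6.58). Mouse 3 had 151.5 CPM of Cenpb (others 160.6 to 164.0) and a myelinating oligodendrocyte score of 5.91 (others 6.58 to 6.81). Mouse 4 had 13.7 CPM of Clic6 (others 3.33 to 6.02) and 19.96 CPM of Kdr, the VEGF receptor of endothelium (others 26.5 to 28.02). Mouse 5 had 7.28 CPM of Ddx58, the RNA sensor RIG-I (others 5.96 to 6.22), 61.6 CPM of Tsc22d3 (others 72.0 to 75.7) and a striatum score of 5.12 (others 5.57 to 5.72).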

How the results depend on the processing

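The count of 4 lowered and 0 raised genes moved with most settings. It was 0 in all with RLE size factors, no filter, the stricter filter, limma-voom, FPKM plus 0.1 without a filter, no mitochondrially encoded genes, thinned counts, the choroid plexus covariate, and the GC offset with the replicate block. It was 1 (lowered) in the fit of only the 10 mice, 2 (lowered) with the GC offset, 8 with the hypothalamus covariate (7 lowered, 1 raised), 52 without the 3 choroid-rich libraries (49 lowered, 3 raised) and 129 by DESeq2 (91 lowered, 38 raised; 5348 genes had no adjusted p). The gene called in the fit of only the 10 mice was not Fnbp1l, Marf1, Col11a1 or Muc6. Their adjusted p values there lay between 0.121 and 0.169 (edgeR). The labels number the mice of each group from 1 to 5. With the replicate block 29 genes were called, 25 lowered and 4 raised. Across genes, same-numbered mice did not deviate together (correlations -0.08 to 0.10). By that measure 0 of 5 salviolone mice correlated best with their own number, so the number is not taken as a pairing. The mitochondrial share, however, fell from mouse 1 to mouse 5 in both groups, and no paired test of it was run. Leaving out 1 mouse gave 0 to 30 calls, 0 to 27 lowered and 0 to 3 raised. The difference in mitochondrial share then ran from -0.2152 to -0.1487 percentage points, and 8 of 10 omissions ended its call (adjusted exact permutation p between 0.0595 and 0.0952). Of the values of 108 named genes, those of 1 gene changed sign: Prnp was at -0.0027 with the choroid plexus covariate and below 0 in 4 omissions, whose full range was -0.0257 to 0.0481. The cause of these shifts was not tested. Of 1203 list medians under other settings, 1194 moved by less than 1 SD between mice and 9, in 6 lists, by more. Depth limits low genes such as the mucins, where 3 counts correspond to 0.0322 to 0.0505 CPM.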
